A study of Mus musculus with 8 samples.

Results

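The 43 genes described here are interferon-stimulated and RNA-sensing genes of the mouse, taken by name from the 47643 named genes of an RNA-seq table: sensors of foreign nucleic acid, enzymes that bind double-stranded RNA, transcription factors of the interferon response and the effectors they switch on. All samples were bone marrow mesenchymal stem cells (MSCs) of C57BL/6 mice, flushed from tibiae and femurs, cultured and kept for 2 days in osteogenic medium with ascorbic acid (50 µg/ml), β-glycerophosphate (5 mM) and dexamethasone (100 nM). The mRNA of 2 cultures with the label wild type, which the study's text names Mettl3fl/fl (WT), was compared with that of 2 cultures labelled Prx1-cre;Mettl3fl/fl (cKO), in which Cre driven by Prx1, a gene of the limb bud mesenchyme, removes an essential part of Mettl3. Mettl3 encodes the catalytic subunit of the enzyme that writes N6-methyladenosine (m6A) on mRNA, and 2 m6A immunoprecipitates and 2 inputs of wild type MSCs gave 1 list of m6A peaks. No source used here gives the sex of the animals, how many animals stand behind a library, or whether replicates came from separate animals, so p-values measure only the spread between these libraries, which may be technical.

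Cells sense foreign RNA with RIG-I and MDA5, which signal through the adaptor MAVS, and foreign DNA with cGAS, which signals through STING. Both routes switch on interferons, which act through their receptors and JAK kinases to bring STAT and IRF proteins to the promoters of the interferon-stimulated genes. The proteins of these genes cut or modify RNA, block translation, trap virus particles at membranes and feed peptides to MHC class I. Most cells also express many of these genes at a low tonic level in the absence of infection, and m6A is known to help cells tell their own RNA from foreign RNA.

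Many interferon-stimulated genes are known to respond through short promoter elements, and stretches from the most abundant members with a match are shown for that reason. RefSeq promoter windows (GRCm38.p6, from 250 bases before to 50 after each start site) were held for 34 of the 43 genes. The core of the interferon-stimulated response element, GAAA and a second GAAA with any 2 bases between them, was searched on both strands, so that its complement, TTTC and TTTC, counts as a match. TTCNNNGAA, the site of STAT dimers, reads alike on both strands, and the searches can overlap. The capitals mark the match, and each stretch is written 5′ to 3′ on the strand of its gene.
Ifitm2 (chr7:140955989-140956016, minus strand): caccaacagGAAAAGGAAAttgctagag
Ifitm3 (chr7:141010724-141010751, minus strand): aaaattcagGAAAAGGAAActtctgaga
Bst2 (chr8:71537578-71537605, minus strand): caggaaaatGAAACTGAAAggctgcagt
Adar (chr3:89730730-89730758, plus strand): gggaagccttTTCAAGGAAacgaaagtga
Eif2ak2 (chr17:78882536-78882563, minus strand): gtccgccggGAAAACGAAAcagaagaga
Stat2 (chr10:128270267-128270294, plus strand): gcaccctggTTTCAGTTTCctttcccta
Psmb8 (chr17:34198088-34198116, plus strand): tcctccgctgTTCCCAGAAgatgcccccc
Ddx58 (chr4:40239805-40239832, minus strand): ctgaggcagTTTCGATTTCctatggcca
Of the 4 genes that passed the test between the genotypes, 3 had a match to the response element core, and these stretches were chosen after their values were seen. Ifitm1 had none in its window.
Oas3 (chr5:120777716-120777743, minus strand): cagggaggaGAAAACGAAAgtgaaggga
Ifit3 (chr19:34583398-34583425, plus strand): ttaagtctgTTTCAGTTTCtactttcct
Gbp2 (chr3:142620595-142620622, plus strand): ctcttttagTTTCACTTTCactgtctta
The response element core was held by 16 of the 34 genes (47.1%), against 3.99% of the 27025 genes with a window, and TTCNNNGAA by 10 (29.4%), against 9.55%. Both were present in 5 genes and neither in 13. A match is a description of these letters only.

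m6A is placed mostly on a short consensus with GGAC at its strongest, and the stretches with the GGAC nearest the summit are shown for the member peaks of highest fold enrichment. Counted from the summit along the transcript's strand, the A of these GGACs lay at positions from −66 (Rtp4) to 57 (Ifit3). Some stretches therefore do not hold the summit. The peaks span 200 bases or more and several hold more than 1 GGAC, so that no single base was measured as methylated. Each is 26 bases of the mm9 genome on the transcript's strand, with GGAC in capitals.
Ifit1 (chr19:34722825-34722850, plus strand, coding sequence): ctcccaactgaGGACatcccgaaaca
Rtp4 (chr16:23613182-23613207, plus strand, coding sequence): agagatactatGGACacaggaagata
Cmpk2 (chr12:27163349-27163374, plus strand, 3′UTR): ccgataactaaGGACtatcacagagc
Ddx58 (chr4:40152880-40152905, minus strand, coding sequence): tcaaagtggaaGGACtttcattttga
Ifit3 (chr19:34662889-34662914, plus strand, 3′UTR): catgaacctgaGGACaaccggaagtg
Parp14 (chr16:35834283-35834308, minus strand, 3′UTR): ttgcgtgggttGGACagctccagcca
Gbp7 (chr3:142210725-142210750, plus strand, 3′UTR): aaaggaaaagtGGACacaagccctca

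The RNA-seq libraries held 23978099 to 34106693 counts, of which the 43 genes took 0.174% to 0.195%. Mettl3 itself lay at 17.6 and 16.9 CPM (counts relative to library size, scaled by TMM) in the WT libraries and at 17.5 and 16.3 CPM in the cKO libraries, a log2 fold change of −0.03 (adjusted p = 0.824), and its partners Mettl14 and Wtap did not pass either. Counts over the whole gene do not isolate the deleted part, so Mettl3 does not check the labels, and WT and cKO stand here for libraries so labelled. All 12 MSC and stromal markers were detected, Col1a1, Col1a2 and the like included, with a summed level of 5538 and 5307 CPM in WT and 3960 and 4028 CPM in cKO. The list did not move as 1: 4 of its 12 genes were higher in cKO and 6 lower, against 13.7% and 16.8% of all genes. They ran from Thy1 (3.93 and 1.91 CPM in WT, 74.7 and 69.4 CPM in cKO, log2 fold change 4.59) to Nt5e (−2.35), both named after their values were seen. Of 14 macrophage and monocyte markers all were detected, and their summed level was higher than that of the stromal list, at 21493 and 25745 CPM in WT and 27875 and 28044 CPM in cKO, most of it from Lyz2, a lysozyme of myeloid cells, at 10984 to 15934 CPM. The cultures therefore held much RNA of a macrophage kind, a cell type of blood origin that also uses interferon-stimulated genes. Of the 14 markers 5 were higher in cKO (13.7% of all genes) and none was lower (16.8% of all genes). In bulk RNA, fewer cells of a type and less RNA per cell cannot be told apart. The neutrophil, lymphoid and plasmacytoid dendritic (0.118 to 0.345 CPM in sum) and erythroid (0.495 to 1.03) lists were low, with Mpo, Ltf, Cd3e and Hbb-bt at 0 in every library. The neutrophil list was lower in cKO, at 3.14 and 4.28 CPM in sum in WT and 1.11 and 0.910 CPM in cKO. Of its 2 tested genes 1 was lower (16.8% of all genes). The endothelial list was low too but higher in cKO, at 11.03 and 9.66 CPM in sum in WT and 26.4 and 24.03 CPM in cKO. Of its 4 tested genes 3 were higher (13.7% of all genes). The part of these markers in the results that follow was not tested.

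All 43 genes were detected in every library, over a wide range. On the TPM scale, which allows for gene length and library size, the mean over the 4 libraries was highest for Ifitm2 (1605 TPM) and Ifitm3 (1218 TPM), membrane proteins that block virus entry, and these held 78.6% of the summed TPM of the list. Next came Bst2 (243 TPM), the tether that keeps budding virus on the cell, Psmb8 (56.2 TPM), a subunit of the immunoproteasome, Ifi35 (35.5 TPM), and Trim25 (31.9 TPM), the ubiquitin ligase of RIG-I. At the other end Mx2 (0.840 TPM), Rsad2 (0.758 TPM) and Mx1 (0.205 TPM), 3 genes strongly induced by interferon, lay under 1 TPM. The median gene stood at 12.9 TPM, close to the 11.9 TPM of all genes tested, and 24 of the 43 reached 10 TPM. Ifitm2 and Ifitm3 moved against most of the list: without them the other 41 genes summed to 833 TPM in WT replicate 1, 618 TPM in WT replicate 2, and 815 and 809 TPM in the cKO replicates.

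**Figure D1:**
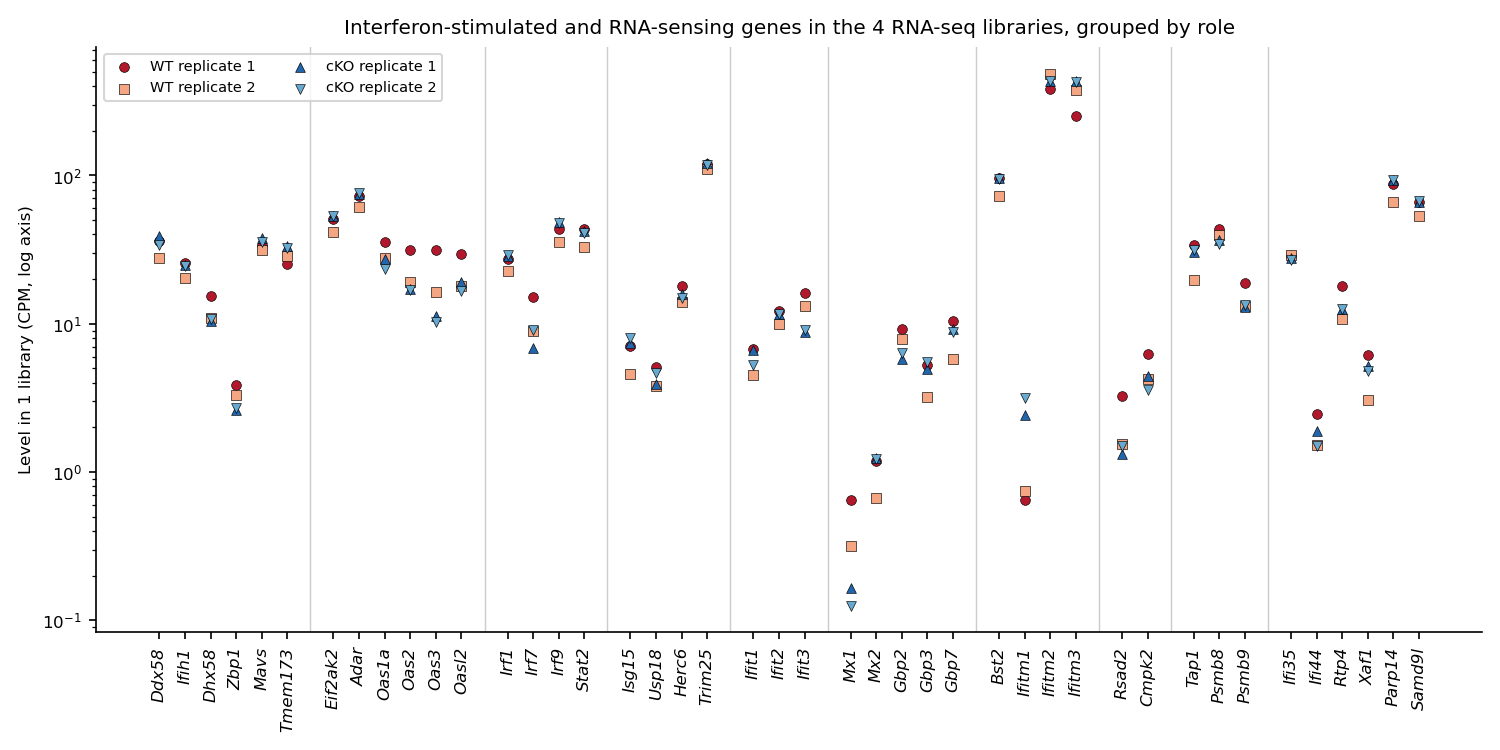
Level of each of the 43 genes in each of the 4 RNA-seq libraries (CPM, log axis), with genes grouped by role between grey lines. Each symbol is 1 library; for most genes WT replicate 1 (dark red circles) lies above WT replicate 2 (light red squares), with the 2 cKO libraries (blue triangles) close together.

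Few of these genes separated the genotypes. Of the 42 that passed the filter on low counts, 1 was higher in cKO (Ifitm1) and 3 were lower (Oas3, Ifit3 and Gbp2) at an adjusted p under 0.05 (quasi-likelihood test of edgeR, Benjamini-Hochberg adjusted over all 15327 genes tested). Among all genes tested 13.7% were higher and 16.8% lower, so in this fit the list held a smaller share of calls in both directions than the table as a whole. That did not hold in every fit: with no filter on low counts 5 of 43 (11.6%) were higher and 8 (18.6%) lower, against 11.6% and 13.4% of all genes, and the fits with 1 WT library, given further on, turn it as well. The median log2 fold change (cKO over WT) of the 42 was 0.07, with 23 genes above 0 and 19 below, beside a median of −0.0038 over all genes. At an unadjusted p under 0.05 there were 9 of the 42 genes, beside 6467 of all 15327 genes tested. In 22 of the 43 genes both cKO libraries lay outside the WT range on the same side, 11 above and 11 below, against 68.9% of all genes tested, 33.9% above and 35.0% below. Both cKO libraries lay between the 2 WT libraries in 12 genes, for which no share over all genes was computed.

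The libraries labelled WT differed from each other far more than the cKO libraries did. WT replicate 2 was below WT replicate 1 for 37 of the 42 genes (49.7% of all genes tested), and below by at least 1.25-fold for 25 of them (13.5% of all genes). Only Ifi35, Tmem173, Ifitm1, Ifitm2 and Ifitm3 of the 42 were higher in WT replicate 2, and of these Ifitm2 and Ifitm3 by at least 1.25-fold (12.4% of all genes). The median log2 ratio of WT replicate 2 to WT replicate 1 was −0.38, beside 0.0013 over all genes. Between the cKO replicates the median absolute log2 difference was 0.0519, against 0.398 between the WT replicates (0.0707 and 0.166 over all genes), and 4 genes differed by at least 1.25-fold (13.9% of all genes). Exact binomial intervals of the ratio, which cover counting error only, left out 1 for 33 genes higher in WT replicate 1 and for 3 higher in WT replicate 2. No share over all genes was computed for these intervals.

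The widest gaps lay among effectors of low or middling level. Rsad2, encoding viperin, which makes a chain-terminating nucleotide, stood at 3.25 CPM in WT replicate 1 and 1.56 CPM in WT replicate 2, a ratio of 2.09 (95% interval 1.46 to 3.04), and at 1.32 and 1.51 CPM in cKO. Xaf1, a pro-apoptotic interferon-stimulated gene, stood at 6.15 and 3.04 CPM (2.02, 1.57 to 2.63) with cKO at 5.16 and 4.80 CPM between them. Tap1, a chain of the transporter that carries peptides to MHC class I, stood at 34.0 and 19.8 CPM (1.72, 1.55 to 1.90), with cKO at 30.3 and 31.2 CPM. Rsad2 in cKO thus lay close to the lower WT library, while Xaf1 and Tap1 in cKO were nearer the higher one. Ifitm3 went the other way at 253 and 378 CPM, WT replicate 2 being 1.49 times WT replicate 1 (1.45 to 1.54), with cKO above both at 433 and 430 CPM. Of the macrophage markers 8 of 14 were lower in WT replicate 2, though their summed level was higher there, and of the 45 other interferon-stimulated genes tested 39 were lower in it (median log2 ratio −0.26). The part of macrophage RNA in this gap was not tested.

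**Figure D2:**
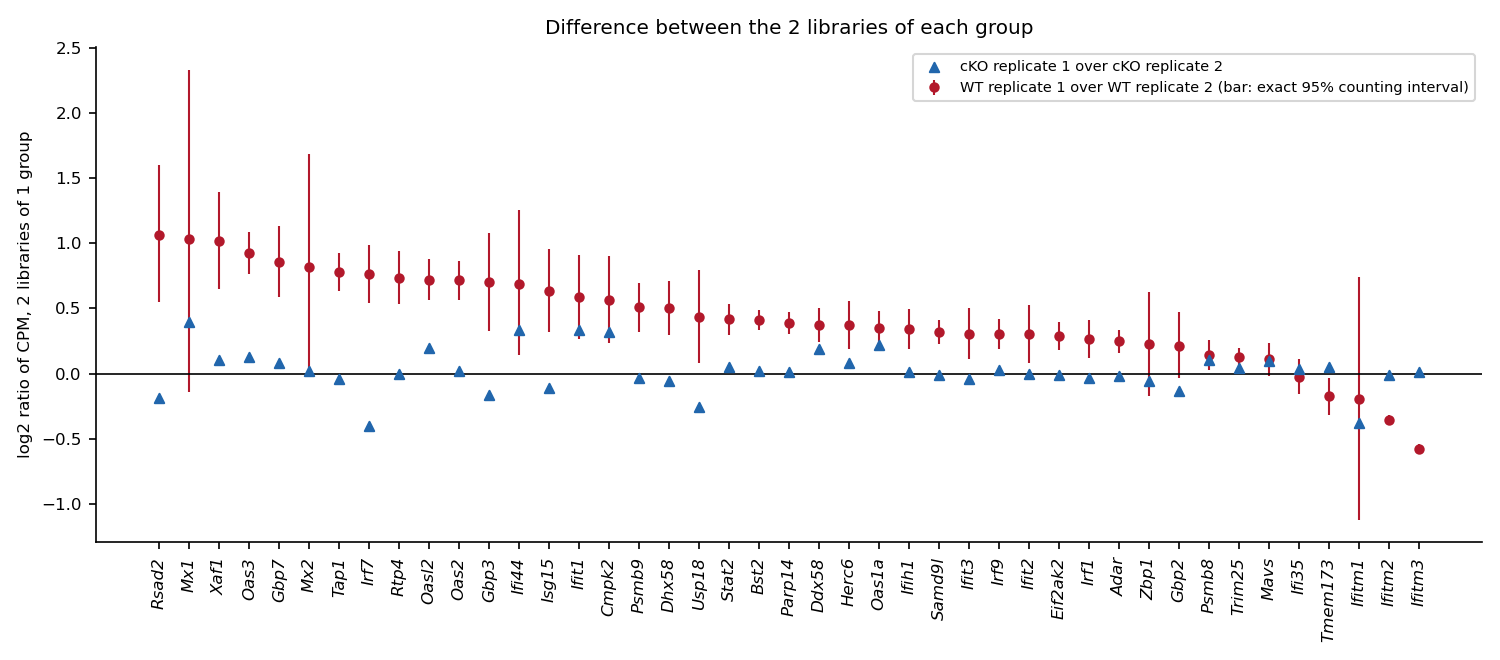
log2 ratio of CPM between the 2 libraries of each group, gene by gene, ordered by the WT ratio; red circles are WT replicate 1 over WT replicate 2 with exact 95% counting intervals, blue triangles cKO replicate 1 over cKO replicate 2. Red points run from above 1 (Rsad2) to below −0.5 (Ifitm3), while nearly all blue points sit near 0.

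The count of calls depended on which WT library was used. When cKO was set against WT replicate 2 alone, 21 of 42 genes (50.0%) were higher and 4 (9.52%) lower, beside 27.1% and 28.6% of all genes in that fit. Against WT replicate 1 alone, 5 of 43 (11.6%) were higher and 16 (37.2%) lower, Mx1 among them, beside 24.1% and 25.9% of all genes. Calls thus rose over the whole table too, and the list exceeded the table for higher genes in the first fit and for lower genes in the second. In these fits a lone WT library is assumed to vary as little as the cKO pair. The log2 fold change had opposite signs in the 2 fits for 17 of the 42 genes, for which no share over all genes was computed. The median of the list was 0.22 in the first and −0.14 in the second, beside −0.0019 and 0.0010 over all genes. The genes called with all 4 libraries kept their sign in the first and second fit. Their log2 fold changes were 1.93 and 2.11 for Ifitm1, −0.60 and −1.54 for Oas3, −0.54 and −0.85 for Ifit3, and −0.37 and −0.60 for Gbp2. Ifitm2 stood at −0.16 in the first fit and at 0.18 in the second.

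**Figure D3:**
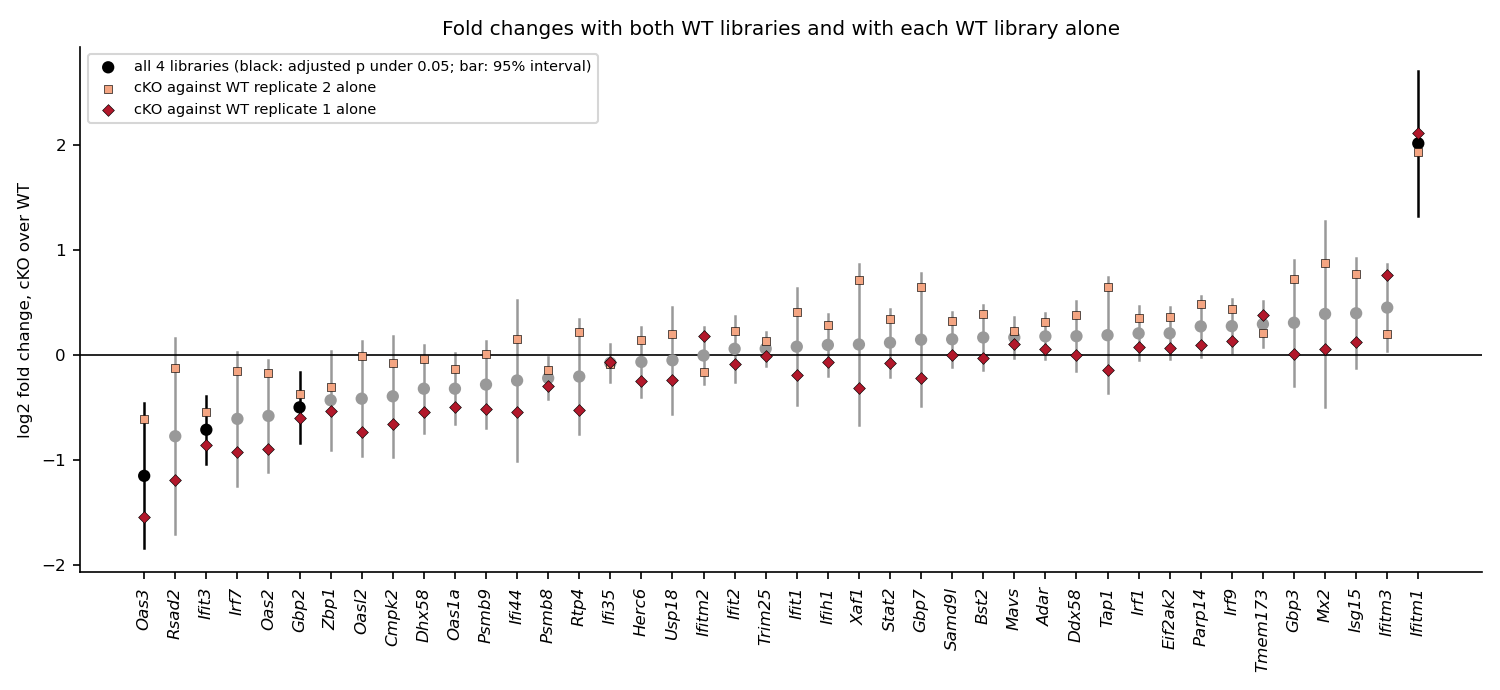
log2 fold change (cKO over WT) of the 42 genes tested, ordered by size; circles use all 4 libraries with 95% intervals (black where the adjusted p is under 0.05), light squares use WT replicate 2 alone and dark diamonds WT replicate 1 alone. Squares and diamonds lie on opposite sides of 0 for 17 genes, and on the same side as the circle for the 4 black ones.

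Of the 6 sensors and adaptors none passed the test. Tmem173, encoding STING, came nearest: it was at 25.2 and 28.4 CPM in WT and at 33.4 and 32.3 CPM in cKO, a log2 fold change of 0.29 (SE 0.09, adjusted p = 0.0501), with no overlap between the groups, and it passed under 6 of 10 other settings. Ddx58, encoding RIG-I, stood at 36.2 and 27.9 CPM in WT and 38.8 and 34.0 CPM in cKO (0.18, adjusted p = 0.368). Mavs, the shared adaptor, stood at 33.9 and 31.4 CPM against 37.9 and 35.5 CPM (0.17, adjusted p = 0.171). The groups of Mavs did not overlap, those of Ddx58 did. Ifih1, encoding MDA5, had a mean of 23.9 CPM with both cKO libraries inside the WT range (0.10), and the values of Dhx58, encoding the RIG-I relative LGP2 (−0.32), and of Zbp1, a sensor of Z-form nucleic acid (−0.43), were lower in cKO without passing.

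Of the 6 enzymes that bind double-stranded RNA, Oas3 fell. Oas3 (ENSMUSG00000032661, chr5:120753098-120777661, minus strand, GRCm38), a synthetase of the 2′-5′-linked oligoadenylates that switch on RNase L, stood at 31.2 and 16.4 CPM in WT and at 11.3 and 10.3 CPM in cKO. Both cKO libraries were below the lower WT library, and the log2 fold change was −1.15 (SE 0.29, adjusted p = 0.0266), though it moved between −1.54 against WT replicate 1 alone and −0.60 against WT replicate 2 alone, and the call was lost without cKO replicate 2 (adjusted p = 0.0572). Its relatives had values in the same direction without passing: Oas2 at 31.5 and 19.2 CPM against 17.1 and 16.9 CPM (−0.58, adjusted p = 0.0937), Oasl2 at 29.5 and 17.9 CPM against 19.1 and 16.7 CPM (−0.42, adjusted p = 0.214), and Oas1a at 35.3 and 27.7 CPM against 27.3 and 23.4 CPM (−0.32, adjusted p = 0.132). In all 4 Oas genes WT replicate 1 was the highest library. The fit without cKO replicate 2, in which Oas3 lost its call, held fewer calls over all genes too. Oas1a has close copies next to it, so its counts are uncertain. Eif2ak2, encoding PKR, which halts translation on double-stranded RNA, stood at 50.8 and 41.6 CPM against 53.2 and 53.6 CPM (0.21, adjusted p = 0.175), and Adar, which edits adenosine in such RNA, at 72.8 and 61.3 CPM against 75.5 and 76.3 CPM (0.18, adjusted p = 0.188).

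None of the 4 transcription factors passed. Irf7, the master factor of interferon production, was at 15.2 and 8.95 CPM in WT and at 6.81 and 9.0 CPM in cKO (−0.61, adjusted p = 0.134), so that its groups overlapped. Irf9, the DNA-binding part of the ISGF3 complex, was at 43.7 and 35.4 CPM against 48.4 and 47.4 CPM (0.27, adjusted p = 0.102). Stat2, its partner, was at 43.7 and 32.7 CPM against 42.2 and 40.8 CPM (0.12, adjusted p = 0.556). In Irf9, and in Irf1 (0.21), both cKO libraries were above both WT libraries, and in Stat2 both lay between them. Irf7 overlaps Phrf1 on the opposite strand and Irf9 overlaps Rnf31 on the same strand, and with a library kit that does not mark strand the reads of Irf7 and Phrf1 cannot be told apart where they overlap.

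Isg15, the ubiquitin-like modifier of the response, stood at 7.10 and 4.56 CPM in WT and at 7.43 and 8.0 CPM in cKO (0.40, adjusted p = 0.216). Usp18, the protease that removes it (−0.05), Herc6, its ligase in the mouse (−0.07), and Trim25 (0.06) had fold changes near 0, with adjusted p of 0.545 to 0.880, and all 4 were lower in WT replicate 2 than in WT replicate 1. The 3 IFIT genes, whose proteins bind foreign RNA ends and stall its translation, did not move together. Ifit3 (ENSMUSG00000074896, chr19:34583531-34588731, plus strand) fell from 16.2 and 13.1 CPM to 8.83 and 9.07 CPM, a log2 fold change of −0.71 (SE 0.13, adjusted p = 0.0102), which just missed the threshold without cKO replicate 1 (adjusted p = 0.0603) or cKO replicate 2 (adjusted p = 0.0518). Ifit1 at 6.74 and 4.49 CPM in WT and 6.69 and 5.30 CPM in cKO (0.08), and Ifit2 at 12.2 and 9.94 CPM against 11.6 and 11.6 CPM (0.06), had both cKO libraries inside the WT range. The fits without a cKO library, in which Ifit3 missed the threshold, held fewer calls over all genes too. Ifit3 has a near-identical neighbour, Ifit3b, with which it may share reads.

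Among the interferon-induced GTPases Gbp2 fell. Gbp2 (ENSMUSG00000028270, chr3:142620602-142638008, plus strand), a guanylate-binding protein that coats vacuoles of intracellular pathogens, stood at 9.20 and 7.92 CPM in WT and at 5.78 and 6.34 CPM in cKO (−0.50, SE 0.14, adjusted p = 0.0405), and this call was kept under 5 of 10 other settings. It was lost without cKO replicate 1 (adjusted p = 0.294) and without cKO replicate 2 (adjusted p = 0.174). Calls over all genes were fewer in these fits too. The Gbp2 paralogs Gbp3 (0.31) and Gbp7 (0.15) did not pass, and in both WT replicate 2 was the lowest library. Mx1, a GTPase gene known to be defective in C57BL/6 mice, held 22 and 9 counts in WT and 4 and 4 in cKO and was too low for the test, and Mx2 stood at 1.18 and 0.672 CPM against 1.24 and 1.22 CPM (0.39, adjusted p = 0.464).

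Ifitm1 was the one gene of the list that rose. Ifitm1 (ENSMUSG00000025491, chr7:140967221-140969825, plus strand), a membrane protein that restricts virus entry, held 22 and 21 counts in WT and 59 and 101 counts in cKO, or 0.651 and 0.743 CPM against 2.43 and 3.17 CPM. The log2 fold change was 2.01 (SE 0.29, adjusted p = 0.00358), and it passed under all 10 other settings (1.81 to 2.19). Both cKO libraries were well above both WT libraries, from a WT level far below that of Ifitm2 and Ifitm3. Ifitm3 stood higher in both cKO libraries, as given above (0.45, SE 0.17, adjusted p = 0.0937), whereas Ifitm2 had both cKO libraries, at 431 and 433 CPM, between the WT libraries at 381 and 486 CPM (−0.0049). Bst2 stood at 96.7 and 72.7 CPM against 95.8 and 94.6 CPM (0.17, adjusted p = 0.371).

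The remaining effectors did not pass. Rsad2 (−0.77, adjusted p = 0.182) and its neighbour Cmpk2, a mitochondrial nucleotide kinase (6.24 and 4.21 CPM in WT, 4.46 and 3.58 CPM in cKO, −0.39, adjusted p = 0.262), had lower values in cKO than in WT replicate 1. Tap1 (0.19), Psmb8 (−0.22, adjusted p = 0.0968) and Psmb9 (−0.28), which make and carry peptides for MHC class I, had adjusted p of 0.0968 to 0.577. Tap1 and Psmb9 are read from opposite strands and overlap, so their counts are uncertain. Parp14, a mono-ADP-ribosyltransferase, stood at 87.1 and 66.7 CPM in WT and 93.3 and 92.7 CPM in cKO (0.27, adjusted p = 0.141), and Samd9l, a translation-blocking restriction factor, at 66.6 and 53.4 CPM against 66.3 and 66.9 CPM (0.15). Ifi35 (−0.08), Ifi44 (−0.24), Rtp4, a chaperone of membrane receptors that is strongly induced by interferon (−0.20), and Xaf1 (0.10) lay within an adjusted p of 0.498 to 0.841.

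The upstream pathway was read from lists of its other genes. Of 20 interferon ligands 17 had 0 counts in every library, which allows up to 0.0881 to 0.125 CPM at the depths of these libraries, 2 more had at most 1 count, and Ifnz, an interferon zeta gene, had 17 and 20 counts in WT and 22 and 31 in cKO (adjusted p = 0.226). Of 16 receptor and JAK-STAT genes 15 passed the filter, the lambda receptor gene Ifnlr1 (0.124 to 0.177 CPM) being too low, and of these 3 rose and 5 fell (13.7% and 16.8% of all genes). Ifngr1 (190 and 173 CPM in WT, 216 and 213 CPM in cKO, log2 fold change 0.24), Ifngr2 (0.30), both chains of the interferon gamma receptor, and Pias1, an inhibitor of STAT signalling (0.36), rose. Stat3 (271 and 286 CPM in WT, 241 and 239 CPM in cKO, −0.21) and Ifnar2, a chain of the type I receptor (−0.22), were among those that fell. Socs1 (−1.32) and Socs3 (−1.60), feedback inhibitors of JAK kinases, also fell and are named after their values were seen.

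Of 22 genes of sensing upstream of interferon 6 rose and 2 fell, beside 13.7% and 16.8% of all genes. Tlr7, an endosomal sensor of single-stranded RNA, stood at 293 and 284 CPM in WT and at 417 and 409 CPM in cKO (0.52, adjusted p = 0.00136). Irf8, a factor of myeloid cells, rose by 0.58 on the log2 scale, and Ikbke (0.49), Traf3 (0.36) and Traf6 (0.24), of the signalling chain, rose as well. Samhd1, which destroys dNTPs, fell from 401 and 410 CPM to 298 and 301 CPM (−0.44). Tlr9, also risen (0.91), and Rnaseh2a, fallen (−0.31), are named after their values were seen. Tlr7 and Irf8 are genes that macrophages use, and of the 14 macrophage markers the C1q genes, Ptprc and Fcer1g rose beside them, while the other 9 did not pass (Csf1r 0.01, Itgam −0.01, Cd68 0.07 and Tyrobp −0.17 among them). The part of that in the rises of Tlr7 and Irf8 was not tested.

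Of 45 other interferon-stimulated genes tested 5 rose and 8 fell, shares close to the 13.7% and 16.8% of all genes, with a median log2 fold change of −0.03. Helz2, a helicase co-activator, fell from 137 and 101 CPM to 43.2 and 42.5 CPM (−1.48), and Ifi204, a DNA sensor (−0.54), and Lgals3bp (−0.34) fell too. Irgm1, an immunity-related GTPase, rose from 31.0 and 27.2 CPM to 56.6 and 57.9 CPM (0.98), and Pml, of the nuclear bodies (0.78), and Ly6e, a surface protein that restricts virus fusion (0.24), rose too. The widest differences, named after their values were seen, were those of the GTPase genes Tgtp1, at 0.296 and 0.212 CPM in WT and 9.12 and 9.54 CPM in cKO (5.16), and Iigp1, at 12.9 and 8.24 CPM against 2.39 and 2.98 CPM (−1.97). Tgtp1 has a near-identical copy, Tgtp2, so its counts are uncertain.

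Peaks of m6A in the wild type MSCs were placed by their summit on the mm9 genome. Of the 42 genes in the annotation used, 22 (52.4%) held at least 1 peak, against 40.1% of the genes tested. Peaks are called more readily in abundant transcripts: between 10 and 100 mean CPM, 16 of 24 members (66.7%) held a peak against 48.6% of genes, and below 10 CPM 4 of 14 against 20.8%. Psmb9 was not analysed here. The 22 genes held 30 of the 10160 deposited peaks, and since there is 1 list for all 4 samples the peaks carry no replicate error.

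The 30 peaks lay mainly in coding sequence: 21 (70.0%) in coding exons, 7 (23.3%) in the 3′UTR, 1 in the 5′UTR (Tap1) and 1 in an intron (Herc6), beside 60.1%, 25.4%, 5.53% and 7.10% of the 9397 peaks in genes. Of 29 with a distance 8 lay within 200 nt of the stop codon, and no share over all peaks was computed for this. GGAC occurred in 26 of the 30 (86.7%), the same share as among all peaks in genes. The median fold enrichment was 4.23, against 4.03 for all peaks, and the median pileup at the summit 47.5, against 60.

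Parp14 held 5 peaks, and Adar, Eif2ak2, Ifit2 and Samd9l 2 each. The highest fold enrichment was that of Oas3, at 9.59 (chr5:121219228-121219476 of mm9, exon 6 of 16, at −2197 nt from the stop codon), and its peak held no GGAC. Next stood the peaks whose GGAC stretches are printed above: Ifit1 (8.57), Rtp4 (7.77), Cmpk2 (7.40), Ddx58 (6.60), Ifit3 (6.31), Parp14 (6.25) and Gbp7 (6.03). Of the 4 genes that passed the test between genotypes, Oas3 and Ifit3 each held 1 peak, Gbp2 and Ifitm1 none. Ifitm3 held a peak of fold 3.18 with the highest pileup of the 30 (116), and none was listed in Ifitm2 or Bst2. Dhx58 shares its peak's summit with another gene, Gm11547.

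**Figure D4:**
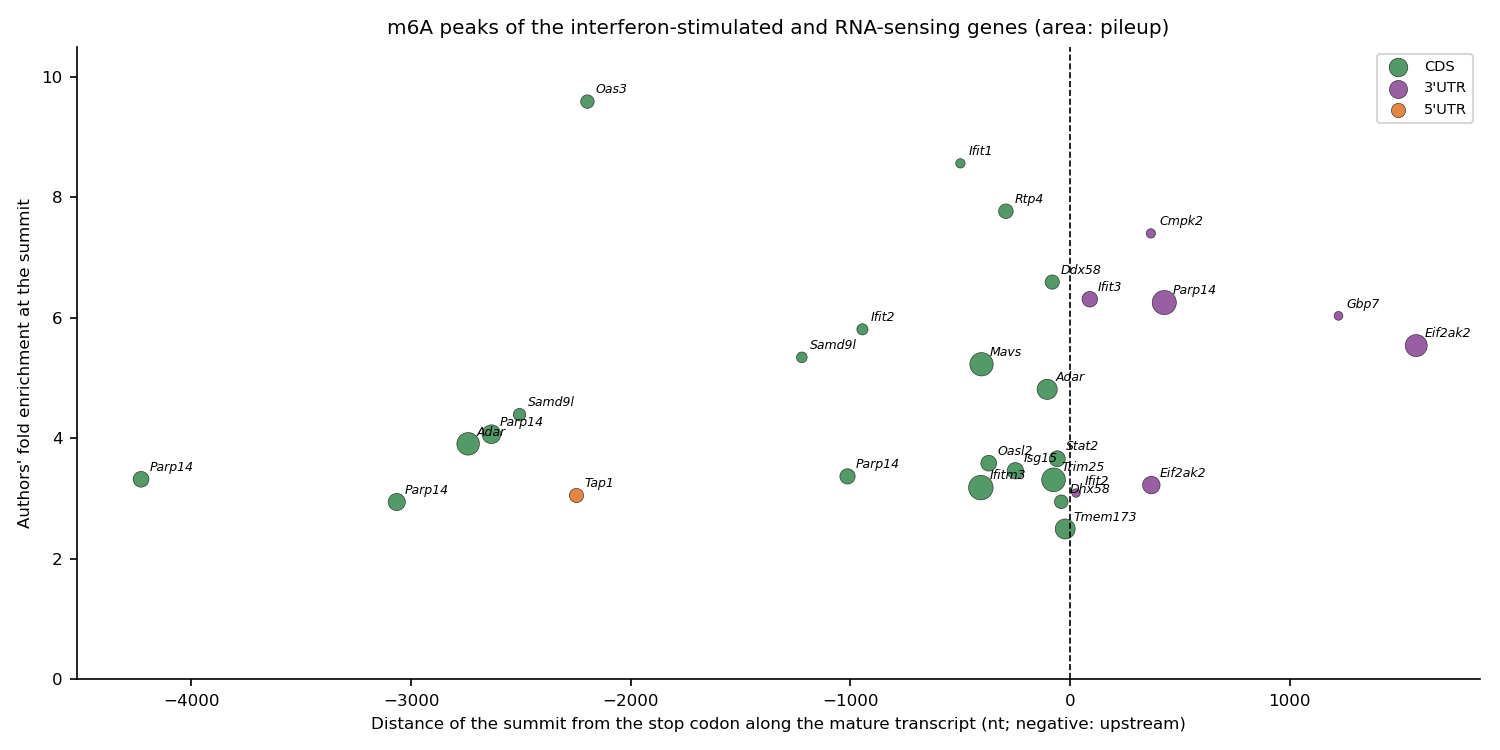
Distance of each member peak's summit from the stop codon along the mature transcript (nt, negative upstream) against the authors' fold enrichment, for the 29 peaks in exons; colour gives the part of the transcript and the area of a point the pileup. The Oas3 peak is the highest, at 9.59, and 8 points lie within 200 nt of the dashed line at the stop codon.

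Genes with and without the response element core were set side by side. The 16 genes with the response element core had a median log2 fold change of 0.11 (10 above 0, 6 below), and the 18 with a window but without it 0.06 (10 above, 8 below). WT replicate 2 was below WT replicate 1 in 14 of the 16 (median log2 ratio −0.39) and in 16 of the 18 (−0.31). Oas3, Ifit3 and Gbp2, all lower in cKO, shared the element with Ifitm2, Bst2, Eif2ak2 and Stat2, which did not pass.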

How the data were processed

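For the RNA-seq and m6A samples together, the submitters' processing notes name HISAT2 2.0.4, TopHat and MACS2 with mm10 and mm9. The study's text names HISAT2 for the RNA-seq reads, and the program that counted them is not given in the sources used here. The authors deposited an estimated count for each gene, not normalized, beside a deposited value headed FPKM that sums to 1000000 per library, in effect TPM. For m6A, 1 deposited list of peaks (mm9) gives a pileup signal, a fold enrichment (a ratio over background) and −log10 q-values.

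Estimated counts were rounded. Entries without a gene name (89 of 47732, 0.110% to 0.125% of counts) stayed out. Genes were filtered by filterByExpr, given TMM factors and compared in edgeR 4.0.16 (glmQLFTest, two-sided, R 4.3.3), tested on simulated data. Libraries held 23978099 to 34106693 counts. The binomial intervals of the ratio between the WT libraries cover counting error only, and may be too narrow, since reads are not independent molecules. The intervals of the log2 fold changes come from the edgeR fit and include the spread between libraries. An exact permutation test of 2 against 2 cannot go below p = 0.333. Alternatives were other size factors, no filter, a replicate block, DESeq2 1.42.0, limma 3.58.1 on log2(TPM + 1), summed cKO libraries, each library left out, and other peak limits. Peaks were placed on GENCODE vM1. All 43 genes are reported, and of the pathway lists the genes past 0.05 of highest mean CPM, of which some are not reported here. The genes and lists were chosen with earlier results of these data known.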

Additional observations from a re-analysis of the deposited data

How the results depend on the processing

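The counts of genes called were small and depended on the fit. Beside 1 higher and 3 lower, median-of-ratios size factors gave 2 higher, no filter on low counts 5 higher and 8 lower (11.6% and 13.4% of all genes), and limma on log2(TPM + 1) 2 higher and 0 lower (11.6% and 9.23%). Leaving out each library in turn gave 1 to 21 higher and 0 to 16 lower. Over all genes, calls in both directions were fewer without cKO replicate 1 or cKO replicate 2 than with every library kept. Calls lost in those fits were therefore not particular to this list. DESeq2 again gave 1 higher and 3 lower (11.5% and 13.7% of all genes), but not the same genes. In DESeq2 Gbp2 lost its call (adjusted p = 0.107) and Oas2 passed (adjusted p = 0.0329). The summed cKO libraries stayed within 1.5 times. With the replicate number as a block 5 were higher and 5 lower (14.7% and 17.1% of all genes). The numbers do not pair the libraries by any label, and the deviations of the libraries numbered 1 correlated at 0.0276 across 15327 genes. Oas3 kept its call in 8, Ifit3 in 7, Gbp2 in 5 and Ifitm1 in 10 of 10 settings. The genes with an m6A peak, 22, became 16 (38.1%) at a −log10 q of at least 10, beside 30.6% of the genes tested. At a fold of at least 3 they were 20 (47.6%), beside 32.5%, and with any overlap 22 (52.4%), beside 42.2%.

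None of the 4 called genes changed sign. Among the others, the log2 fold change of Ifitm2 became 0.00036 with median-of-ratios factors, 0.00055 without a filter, 0.0054 with the replicate block, 0.00032 in DESeq2, 0.0026 with summed cKO libraries and 0.11 in limma, where Usp18 became 0.062, Herc6 0.092 and Ifi35 0.018. With single libraries left out the ranges were −0.0026 to 0.38 for Ddx58, −0.064 to 0.28 for Ifih1, −0.078 to 0.35 for Stat2, −0.24 to 0.20 for Usp18, −0.24 to 0.14 for Herc6, −0.0052 to 0.13 for Trim25, −0.19 to 0.41 for Ifit1, −0.083 to 0.23 for Ifit2, −0.22 to 0.65 for Gbp7, −0.026 to 0.39 for Bst2, −0.16 to 0.18 for Ifitm2, −0.14 to 0.64 for Tap1, −0.51 to 0.0072 for Psmb9, −0.54 to 0.15 for Ifi44, −0.52 to 0.22 for Rtp4, −0.31 to 0.71 for Xaf1 and −0.0022 to 0.33 for Samd9l. The cause of these changes was not tested. The depth of the m6A samples is unknown, so a low gene without a peak may carry a mark that was not detectable.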
